A study of Mus musculus with 3 samples.

Results

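Genes named for their induction by interferon were examined in 3 samples of sorted stroma from mouse tumours. The set was chosen by name: every probe set of the array (a group of probes read as 1 value) whose platform annotation gave a single symbol of the Ifit, Ifitm, Ifi, Oas, Gbp, Irf, Irgm or Mx families, or one of Iigp1, Isg15, Isg20, Rsad2, Usp18, Stat2, Bst2, Ddx58, Dhx58 and Zbp1. This gave 74 probe sets for 72 genes, of 22087 genes named on the array. The pattern also takes in 4 genes of other proteins, Irf2bp1, Irf2bp2 and Irf2bpl, which encode partners of IRF2 or their relatives, and Isg20l2. Ifi35 and Irf2bp2 each had a second probe set, and the brighter was used. A further 9 probe sets that list such a symbol together with another gene were not used.

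Interferons are secreted proteins made when a cell senses viral or misplaced nucleic acid. Type I interferons, such as interferon beta, signal through the receptor pair IFNAR1 and IFNAR2 to a transcription factor complex with STAT2 and IRF9, which binds the interferon-stimulated response element (ISRE) in the promoters of effector genes. Interferon gamma, made by T cells and natural killer cells, signals through IFNGR1 and IFNGR2 to STAT dimers, which bind the gamma-activated site (GAS) and favour the guanylate-binding proteins and immunity-related GTPases. Macrophages, dendritic cells, fibroblasts and endothelial cells all respond, and several IRFs also serve as lineage factors of leukocytes.

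The 3 samples, numbered 1 to 3 in their titles, form a single group. All carried the genotype Dicer1 +/-, came from tumours that the series title calls ASD+/-, and were live cells without PECAM1, an endothelial surface protein, and without tdTomato, the red fluorescent protein that marked the tumour cells. The labels spell out neither the ASD alleles nor the promoter that drives the reporter, and give no age or treatment. Total RNA was read on 1 Affymetrix array per sample. Nothing in the labels ties the samples to different mice, and the SDs given here describe these 3 arrays only. ASD+/+ stroma was not analysed here. With 1 group and 1 array per sample no difference could be tested, and all differences below are descriptions of these arrays.

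The deposited values are log2 intensities, so a difference of 1 is a 2-fold change. Levels of different genes were not ranked, since probes differ in brightness. A gene was called detected on an array when it exceeded the level that 95% of 1438 chemosensory receptor probe sets (smell, pheromone and taste receptors, not expected in stroma) stayed under, which was 5.16, 5.11 and 5.20 for samples 1 to 3. The array medians were 5.35, 5.34 and 5.36. All 8 fibroblast markers and all 10 macrophage and monocyte markers examined were detected on all 3 arrays, and Pecam1 was detected too, at 8.02, 7.20 and 8.25. Sample 1 alone had high Xist (9.78, against 3.43 and 3.49) and low Kdm5d and Eif2s3y, which are Y-linked (3.67, against 7.03 and 7.50, and 3.86, against 8.51 and 8.71). Sample 1 thus had the transcripts of female cells and samples 2 and 3 those of male cells, so sample 1 came from another animal and the spread is not technical alone. Whatever sets sample 1 apart, the GBP genes included, cannot be told apart from this difference in sex. Whether samples 2 and 3 came from different mice is not known. In bulk RNA of this kind, fewer cells of a type and less RNA per cell cannot be told apart.

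All named genes here means the 20658 genes outside the chemosensory reference. Their spans, SDs, differences between samples and orders of samples are taken over the 13636 detected on at least 1 array, unless another set is named. Of the 72 genes, 51 (70.8%) were detected on all 3 arrays, where 60.5% of all named genes were. Another 5 were detected on 1 or 2 arrays (Gbp4, Gbp8, Ifit3b, Mx1 and Oas1g), which makes 56 of 72 on at least 1 array (77.8%, against 66% of all named genes), and 16 on none. Those 16 were Gbp2b, Gbp5, Gbp6, Gbp11, Ifi27l2b, Ifi44l, Ifi208, Ifi213, Ifi214, Ifit1bl1 and 6 genes of the Oas1 group (Oas1b, Oas1c, Oas1d, Oas1e, Oas1f and Oas1h). A probe set below the detection level does not show that the transcript is missing. Among the 56 genes detected on at least 1 array, 8 spanned more than 1 between the highest and the lowest sample (14.3%), where 5.7% of all named genes did. They were Bst2, Gbp4, Gbp8, Gbp9, Ifi205, Ifi207, Ifi209 and Oas1g. The median span was 0.50, against 0.31 for all named genes, and the median SD 0.27, against 0.16.

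Taken as a whole the set had no common high sample. Of the 56 genes, 18 were highest in sample 1 (28.8% of all named genes were), 21 in sample 2 (32.5%) and 16 in sample 3 (32.8%), with 1 tie. Between pairs of samples, differences above 1 were found for 5 of the 56 genes with sample 1 above sample 2 (1.24% of all named genes), 4 with sample 1 above sample 3 (1.34%), 3 with sample 2 above sample 3 (2.34%) and 2 with sample 3 above sample 2 (1.13%). No gene of the set was above sample 1 by more than 1 in sample 2 (0.594%) or in sample 3 (1.41%). The median deviation from the gene mean was 0.03, 0.00 and -0.04 in samples 1 to 3. The families behind these totals went different ways. Effectors of the IFIT and OAS families were mostly highest in sample 2, GBP genes in sample 1 and 4 of 6 IFITM genes in sample 3.

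The ligands and receptors, which the name pattern does not include, set the frame for these families. Ifnb1, which encodes interferon beta, was at 4.56, 7.48 and 3.79 in samples 1 to 3. It was detected in sample 2 only. Other type I ligand genes did not share this profile. Ifna1 (7.30, 7.31 and 7.60) and Ifna4 (6.99, 6.87 and 6.51) were detected on all 3 arrays. Ifna1 was highest in sample 3 and Ifna4 in sample 1. Ifng, which encodes interferon gamma, was at 5.30, 4.92 and 5.38, near the detection level everywhere and below it in sample 2. The type I receptor genes were even across samples, with a span of 0.19 for Ifnar1, which was highest in sample 2 at 9.19, and with Ifnar2 at 9.99, 10.00 and 10.17. So were the interferon gamma receptor genes, with Ifngr1 at 9.84, 10.00 and 10.06 and Ifngr2 at 8.85, 8.76 and 8.84. Among the 15 ligand and receptor genes of this list 2 spanned more than 1, Ifnb1 and Ifnlr1, the receptor chain for lambda interferons (4.91, 5.36 and 6.24). None of the 9 receptor kinases and inhibitors and none of the 11 genes of nucleic acid sensing did. Jak1 stood at 9.84, 9.68 and 9.83, and Socs1, a feedback inhibitor, at 7.10, 7.02 and 7.19.

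The 3 sensors of the set were all detected on every array, where 60.5% of all named genes were. None spanned more than 1, where 5.7% of all named genes did. Ddx58, which encodes the viral RNA sensor RIG-I, was at 7.81, 7.72 and 7.73, a mean of 7.75 ± 0.05 (SD, n = 3). Dhx58, which encodes its relative LGP2, was at 6.42, 6.45 and 6.86 and stood apart in sample 3. Zbp1, a sensor of left-handed nucleic acid that can start cell death, was at 7.95, 7.31 and 7.78 and was lowest in sample 2.

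The transcription factors Stat2 and Irf9, partners in the type I response, differed little between samples. Stat2 was at 7.68, 7.67 and 7.86, a mean of 7.74 ± 0.11 (SD, n = 3). Irf9 was at 7.49, 7.44 and 7.35, a mean of 7.42 ± 0.07 (SD, n = 3). Irf3, the factor that sensors activate to switch on Ifnb1, was at 7.91, 7.86 and 7.89, with a span of 0.05. Irf7, itself induced by interferon and an amplifier of type I production, was at 7.47, 7.81 and 7.75, lowest in sample 1 and 0.07 apart between samples 2 and 3. Irf7 was the only one of the 8 factors that was highest in sample 2, and 5 of the 8 were lowest there (29.4% of all named genes were).

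Irf1, which interferon gamma induces, was at 8.01, 8.01 and 8.28, with identical values in samples 1 and 2, so its SD of 0.15 may understate the spread. Irf2, a competitor of IRF1 at the same sites, was at 8.94, 8.65 and 8.86. The lineage factors had the largest spans of the family. Irf4, which B cells, plasma cells and some dendritic cells need, was at 8.41, 7.73 and 8.05, and Irf8, which dendritic cells and monocytes need, at 8.28, 7.71 and 8.42. Both were lowest in sample 2, by 0.33 and 0.57 from the next sample. The conventional dendritic cell markers were also lowest there, 8 of 8. Their summed linear intensity was 3600, 2590 and 4341 in samples 1 to 3. Plasmacytoid dendritic cell markers detected on at least 1 array were lowest in sample 2 in 3 of 6. Macrophage and monocyte markers were lowest there in only 1 of 10, and highest there in 5 of 10. T cell markers were lowest there in 7 of 7, at summed levels of 1668, 441 and 942. B and plasma cell markers were lowest there in 5 of 7 and, like Irf4, highest in sample 1, in 7 of 7. Their summed levels were 3649, 1496 and 1488. The part of these cells in the IRF values was not tested.

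**Figure D1:**
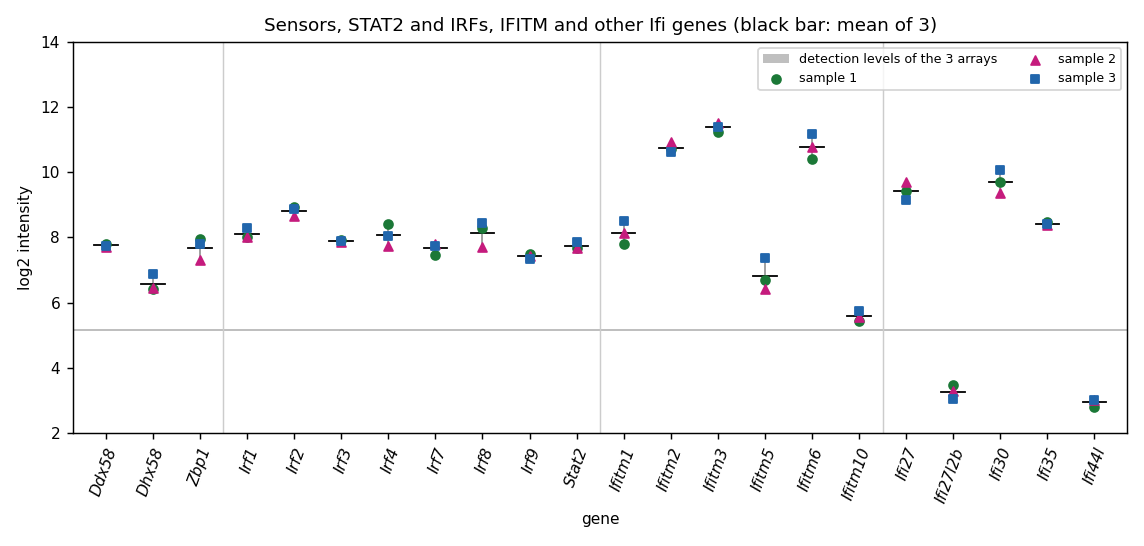
Log2 intensity (vertical axis) of each sensor, STAT2 and IRF, IFITM and other Ifi gene (horizontal axis) in samples 1 to 3 (circle, triangle, square), with the mean as a black bar and the detection levels as a grey band. Irf3 and Ddx58 lie close together in all 3 samples, while Ifitm1 and Ifitm6 are highest in sample 3.

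The antiviral effectors of the type I response were grouped as IFIT, OAS and a mixed group from ISG15 to tetherin. IFIT proteins bind viral RNA and block its translation. Ifit1 was at 6.78, 7.32 and 6.56, a mean of 6.89 ± 0.39 (SD, n = 3). Ifit2 was at 5.62, 6.22 and 5.67, and Ifit3 at 7.17, 7.47 and 7.24. All 3 were highest in sample 2, by 0.53, 0.55 and 0.23 over the next sample. Ifit3b was at 4.71, 5.29 and 4.71, above the detection level in sample 2 only, and its equal values in samples 1 and 3 lower its SD. Ifit1bl2, a less studied relative, went the other way with 5.56, 5.38 and 6.05.

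OAS enzymes make the second messenger that activates RNase L, and the OAS-like proteins act on RNA sensing. Oas3 was at 6.41, 7.31 and 6.81, a mean of 6.84 ± 0.45 (SD, n = 3), and sample 2 stood 0.51 above sample 3. Oas2 was at 7.49, 7.59 and 7.24, with samples 1 and 2 only 0.10 apart. Oasl1 was at 5.97, 6.68 and 6.24 and Oasl2 at 7.13, 7.69 and 7.21, both highest in sample 2. Oas1g had the widest span of the family, with 6.34, 6.98 and 5.15, and its value in sample 3 lay below the detection level. Without sample 3 its span was 0.64, against 1.83 with it. All 5 OAS genes detected on at least 1 array were highest in sample 2, where 32.5% of all named genes were. The 6 undetected Oas1 copies, of which RefSeq annotates Oas1b as a transcribed pseudogene, are not ordered here.

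In the mixed group, Isg15, a ubiquitin-like protein that is attached to other proteins during the response, was at 6.26, 6.72 and 6.26, a mean of 6.41 ± 0.27 (SD, n = 3). Rsad2, which encodes viperin, was at 7.32, 7.74 and 7.30, and Mx2 at 5.89, 6.63 and 5.90. Mx genes are known for dynamin-like antiviral GTPases, but RefSeq annotates both Mx1 and Mx2 of the reference strain as transcribed pseudogenes, so their values here are transcript levels only. In Isg15, Rsad2 and Mx2 sample 2 was the high sample, while samples 1 and 3 differed by 0.003, 0.024 and 0.014. Mx1 did not share this order, at 5.21, 4.97 and 5.26, and was not detected in sample 2. Usp18, the protease that removes ISG15 and damps the receptor, was at 6.68, 6.66 and 6.73, and Isg20, an exonuclease, at 8.04, 7.91 and 8.07. Their spans were 0.07 and 0.16. Bst2, which encodes tetherin, the protein that holds budding virus at the cell surface, had a different profile with 8.27, 8.55 and 6.72. Samples 1 and 2 lay 0.28 apart and sample 3 was 1.55 or more below them, so that its span of 1.83 (3.55-fold) fell to 0.28 without sample 3.

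Over the 3 groups together, 11 of the 14 genes detected on all 3 arrays were highest in sample 2, where 32.1% of all such genes were. With the genes detected on at least 1 array there were 13 of 17 (32.5%), of which Ifit3b passed the detection level through sample 2 alone. Over all 24 measured genes, detected or not, 13 were (30.2% of all 20658 named genes). Without the Mx genes, 12 of the 15 genes detected on at least 1 array were. The 4 detected exceptions were Ifit1bl2, Mx1, Isg20 and Usp18, and all 4 were highest in sample 3. Sample 2 stood above the next sample by 0.10 to 0.73 in the 13 genes, with a median of 0.48, against a median of 0.16 over all named genes highest in sample 2. In 7 of the 13 the other samples lay within 0.1 of each other (53.8%, against 37.5% of all genes highest in sample 2). Ifit3b is among these 7, with equal values in samples 1 and 3 that lay below the detection level. These gaps describe genes taken for being highest in sample 2 and are no separate evidence for that order. Over the 14 genes the median deviation was -0.13, 0.33 and -0.14 in samples 1 to 3.

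Other interferon-induced genes that the name pattern does not cover did not follow this order. Of 28 such genes detected on at least 1 array, 8 were highest in sample 2 (32.5% of all named genes were). Sample 1 was highest in 14 (28.8%) and sample 3 in 6 (32.8%). Their median deviations were 0.07, -0.05 and 0.01 in samples 1 to 3. Cmpk2, the neighbour of Rsad2 in the genome, was at 6.84, 7.28 and 7.25, and Xaf1, a pro-apoptotic factor, at 7.71, 7.75 and 7.67. None of the 28 spanned more than 1, where 5.7% of all named genes did. Fibroblast markers were highest in sample 2 in 8 of 8, with summed linear intensities of 13243, 17884 and 8785, and pericyte and smooth muscle markers in 8 of 8, with 4602, 7694 and 3257. Of 6 gland and epithelial genes, 3 were highest and 3 lowest in sample 2. Lipf (3.11, 9.24 and 3.42) and Bpifb1 (3.92, 9.36 and 4.91) were detected in sample 2 only, while Cdh1, an epithelial adhesion protein, was lowest there (7.16, 6.47 and 8.13), as were Krt18 and Epcam. The part of these cells in the effector values was not tested.

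**Figure D2:**
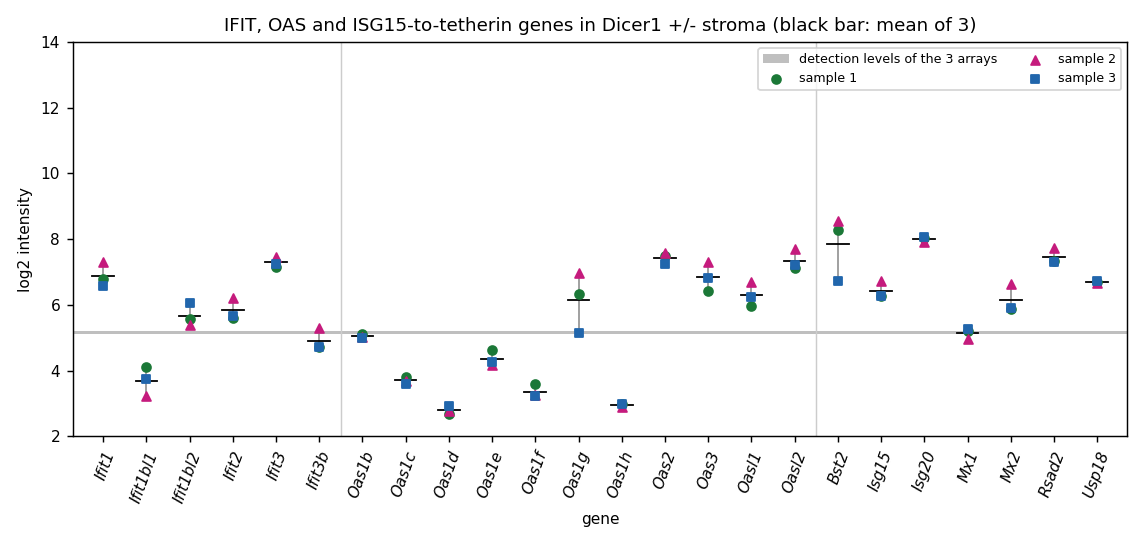
Log2 intensity (vertical axis) of each IFIT, OAS and ISG15-to-tetherin gene (horizontal axis) in samples 1 to 3 (circle, triangle, square), with the mean as a black bar and the detection levels as a grey band. The triangle of sample 2 is on top in 13 of the 17 genes detected on at least 1 array, and the 3 samples of Usp18 and Isg20 nearly coincide.

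Promoters were then searched for the response elements, since genes of these families are known for them. RefSeq windows of GRCm38.p6, 250 bases before to 50 after each transcript start, were found for 52 of the 72 genes (63 windows, as 9 genes have several), and 20 had no window in the table. The ISRE core was searched as GAAA, any 2 bases and GAAA on both strands, and the GAS as TTCNNNGAA, whose fixed letters read alike on both strands. The ISRE core was present for 27 of the 52 genes (51.9%), against 3.99% of all 27025 genes with a window, and the GAS for 14 (26.9%) against 9.55%. In 2 windows a match to each overlapped. The core was found for 5 of 6 IFIT, 3 of 7 OAS, 3 of 4 genes of the ISG15 to tetherin group, 4 of 4 GBP, 5 of 7 Ifi200, 2 of 2 IRG, 2 of 6 IFITM and 2 of 8 STAT and IRF genes, and for Ddx58. Of 41 matches 37 began before the transcript start, 31 of them within 150 bases. A match describes the letters in the window and does not show that a factor bound there.

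The ISRE core was held by 12 of 17 detected genes with a window that were highest in sample 2, by 5 of 12 that were highest in sample 1 and by 3 of 13 that were highest in sample 3. These counts are not independent, because copies within a family share sequence. The stretches below show the core in effectors that were highest in sample 2, in capitals with 12 bases on each side, each on the strand of its gene. The core appears as GAAA and GAAA around 2 free bases or, on the other strand, as TTTC and TTTC, and overlapping copies run together.
Isg15, chr4:156200863-156200908, minus strand: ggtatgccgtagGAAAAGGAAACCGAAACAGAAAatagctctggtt
Rsad2, chr12:26456551-26456584, minus strand: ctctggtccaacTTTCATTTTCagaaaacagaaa
Ifit1, chr19:34640773-34640825, plus strand: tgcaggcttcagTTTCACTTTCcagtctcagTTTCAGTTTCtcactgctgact
Ifit3, chr19:34583395-34583428, plus strand: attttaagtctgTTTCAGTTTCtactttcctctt
Ifit3b, chr19:34607791-34607824, plus strand: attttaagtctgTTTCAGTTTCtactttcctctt
Oas3, chr5:120777713-120777746, minus strand: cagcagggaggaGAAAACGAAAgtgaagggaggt
Oas1g, chr5:120887604-120887643, minus strand: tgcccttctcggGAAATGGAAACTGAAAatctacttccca
Bst2, chr8:71537575-71537614, minus strand: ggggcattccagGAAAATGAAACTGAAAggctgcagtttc
In Isg15 3 copies of the core overlap, the first beginning 78 bases before the start. Ifit3 and Ifit3b hold 2 copies each, and their stretches show only the copy nearer the start. Ifit1 has 2 copies, and its window shares 245 bases with that of Ifit1bl2, which is read from the opposite strand. The same element thus lies in front of Ifit1, highest in sample 2 at 7.32, and of 1 start of Ifit1bl2, lowest there at 5.38. That value of Ifit1bl2 lay only 0.27 above the detection level. Ifit1bl2 also has a window at another start, without the core. Which start its signal came from was not tested. The stretches of Ifit3 and Ifit3b are identical, as these are near copies of each other, and their probe sets may read both transcripts. This was not tested.

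**Figure D3:**
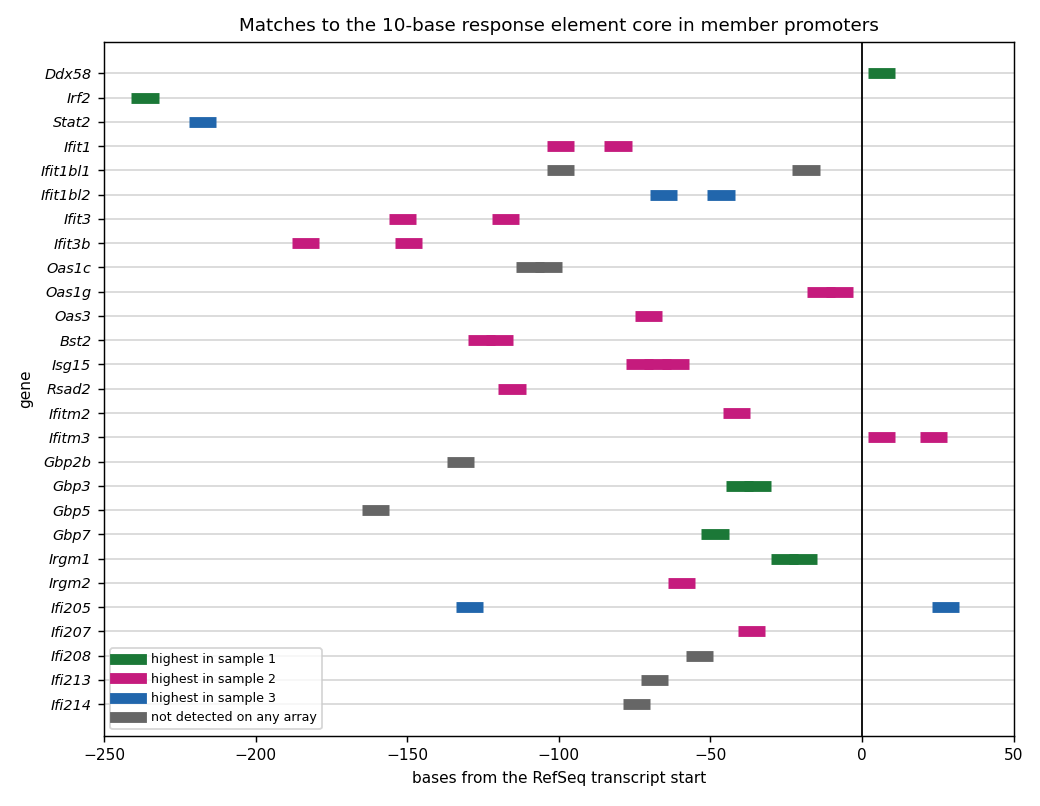
Positions of the 10-base ISRE core (bars) in the promoter windows of the 27 genes that hold it, as bases from the RefSeq transcript start (horizontal axis), with 1 gene per line and colours for the sample in which a detected gene was highest. Most matches lie within 150 bases before the start, and genes highest in sample 2 make up most of the IFIT, OAS and ISG15 to tetherin lines.

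The members with the widest spans that hold a core were Ifi205, Oas1g and Bst2, and their whole windows are shown with the core in capitals. They are set beside the windows of Oasl2, an effector highest in sample 2, and of Ifitm1, highest in sample 3, neither of which holds the core or the GAS in this window.
Bst2, chr8:71537423-71537722, minus strand: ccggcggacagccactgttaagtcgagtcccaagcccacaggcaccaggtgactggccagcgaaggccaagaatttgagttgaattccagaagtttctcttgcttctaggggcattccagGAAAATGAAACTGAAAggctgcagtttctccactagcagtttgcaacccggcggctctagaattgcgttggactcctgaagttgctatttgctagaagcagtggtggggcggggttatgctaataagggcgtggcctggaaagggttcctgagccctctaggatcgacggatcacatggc
Oas1g, chr5:120887564-120887863, minus strand: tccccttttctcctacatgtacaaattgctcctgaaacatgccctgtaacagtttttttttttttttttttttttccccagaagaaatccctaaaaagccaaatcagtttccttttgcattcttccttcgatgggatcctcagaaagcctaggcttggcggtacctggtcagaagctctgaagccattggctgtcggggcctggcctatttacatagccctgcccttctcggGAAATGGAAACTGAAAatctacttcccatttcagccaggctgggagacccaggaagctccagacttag
Ifi205, chr1:174031706-174032005, minus strand: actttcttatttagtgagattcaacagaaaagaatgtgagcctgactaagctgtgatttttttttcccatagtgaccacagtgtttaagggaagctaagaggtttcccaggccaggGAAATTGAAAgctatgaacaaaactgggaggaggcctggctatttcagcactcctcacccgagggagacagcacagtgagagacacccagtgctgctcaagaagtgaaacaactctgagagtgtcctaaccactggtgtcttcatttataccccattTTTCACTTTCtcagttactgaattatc
Oasl2, chr5:114896684-114896983, plus strand: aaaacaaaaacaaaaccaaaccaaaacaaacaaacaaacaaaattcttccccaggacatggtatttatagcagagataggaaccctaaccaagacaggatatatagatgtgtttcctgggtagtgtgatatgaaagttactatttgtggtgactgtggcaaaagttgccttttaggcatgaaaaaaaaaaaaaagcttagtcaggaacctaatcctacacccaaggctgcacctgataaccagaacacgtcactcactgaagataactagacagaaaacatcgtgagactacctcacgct
Ifitm1, chr7:140967826-140968125, plus strand: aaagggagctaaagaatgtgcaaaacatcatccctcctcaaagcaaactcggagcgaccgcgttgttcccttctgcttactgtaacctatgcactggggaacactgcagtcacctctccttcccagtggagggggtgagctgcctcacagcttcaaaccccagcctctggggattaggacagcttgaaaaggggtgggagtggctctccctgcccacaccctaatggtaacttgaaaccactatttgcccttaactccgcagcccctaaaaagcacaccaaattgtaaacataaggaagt
In Bst2 2 copies of the core overlap, and in Ifi205 a copy on each strand lies on either side of the start. Genes that hold the core thus had opposite profiles, as sample 2 gave the highest value of Oas1g, 6.98, and the lowest of Ifi205, 6.97.

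GBP genes were highest in sample 1. Guanylate-binding proteins are large GTPases that attack the vacuoles of intracellular bacteria and parasites and respond strongly to interferon gamma. All 4 GBP genes detected on all 3 arrays (Gbp3, Gbp7, Gbp9 and Gbp10) had their highest value in sample 1, where 29.2% of all such genes did. Their median deviation was 0.36, -0.12 and -0.14 in samples 1 to 3. Gbp8 and Gbp4 were also highest there, but Gbp4 passed the detection level through sample 1 alone. Gbp2b, Gbp5, Gbp6 and Gbp11, the last a transcribed pseudogene in RefSeq, lay below it on every array, and the order of their samples is not read.

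The spans differed between the genomic clusters of the family. In the RefSeq gene order of GRCm38.p6 the 10 genes lie in 2 clusters. In the cluster of Gbp4, Gbp6, Gbp8, Gbp9, Gbp10 and Gbp11, the 4 detected genes spanned 0.85 to 2.44. Gbp8 was at 7.41, 4.97 and 6.31, a mean of 6.23 ± 1.22 (SD, n = 3), and was below the detection level in sample 2. Gbp9 was at 8.73, 7.13 and 7.95, a mean of 7.94 ± 0.80 (SD, n = 3), with a span of 1.60 (3.04-fold) over values that were all detected. Gbp10 was at 7.55, 6.79 and 6.70, and Gbp4 at 5.69, 4.53 and 4.78, detected in sample 1 only. In these 4 genes sample 1 stood 0.76 to 1.10 above the next sample.

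In the other cluster, of Gbp2b, Gbp3, Gbp5 and Gbp7, the detected genes spanned 0.05 and 0.44. Gbp3 was at 6.85, 6.81 and 6.80, a mean of 6.82 ± 0.03 (SD, n = 3), and Gbp7 at 7.07, 6.95 and 6.63, a mean of 6.88 ± 0.23 (SD, n = 3). Gbp2b was at 4.14, 3.87 and 3.82 and Gbp5 at 4.90, 4.67 and 4.75, all below the detection level. Genes of a cluster are similar in sequence, so their probe sets may share signal, and they are not independent of each other. The stretches around the core in the second cluster are shown because its promoters hold the element while its detected genes spanned less than those of the other cluster.
Gbp3, chr3:142559987-142560026, plus strand: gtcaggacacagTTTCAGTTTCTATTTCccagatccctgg
Gbp7, chr3:142530271-142530304, plus strand: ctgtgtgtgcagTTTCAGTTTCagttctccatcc
Gbp3 holds 2 overlapping copies and Gbp7 a single one, with 2 matches to the GAS elsewhere in its window. Windows for the genes of the cluster with the wide spans were not analysed here.

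Markers of T cells and of B and plasma cells were also highest in sample 1. All 7 T cell markers and all 7 B and plasma cell markers had their highest value there, with summed linear intensities of 1668, 441 and 942 and of 3649, 1496 and 1488 in samples 1 to 3. Cd3e, a T cell receptor subunit, was at 8.59, 6.49 and 8.04, and Ms4a1, which encodes CD20, at 9.05, 6.34 and 6.45. Of 5 natural killer markers detected on at least 1 array, 3 were highest in sample 1. The summed linear intensity of all 7 measured natural killer markers was 544, 484 and 737, highest in sample 3. This sum depended on Nkg7, a granule protein, which was at 7.90, 7.90 and 8.96. Without it the sums were 305, 245 and 238, but it was left out only after the values were seen. The part of these cells in the GBP values was not tested. Further genes that respond to interferon gamma did not follow the GBP order. Of 8 detected on at least 1 array, 1 was highest in sample 1 (28.8% of all named genes), 2 in sample 2 (32.5%) and 5 in sample 3 (32.8%), and 6 were lowest in sample 2 (29.4%). Cxcl9, a chemokine for T cells, was at 7.86, 7.25 and 8.05, and Cxcl10 at 7.86, 8.64 and 7.96. Igtp, a GTPase of the IRG family outside the name pattern, was at 7.22, 6.93 and 7.10, and Ciita, the master regulator of MHC class II genes, at 7.83, 6.68 and 8.27.

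The Ifi200 genes encode proteins of the nucleus and cytosol, several of which bind DNA, and lie in a single cluster. Of 9 measured genes 6 were detected, each on all 3 arrays (66.7%, against 60.5% of all named genes). Of these 6, 3 spanned more than 1 (50%, against 5.7% of all named genes). Ifi205 was at 8.65, 6.97 and 8.82, a mean of 8.15 ± 1.02 (SD, n = 3), with samples 1 and 3 0.16 apart and sample 2 1.68 or more below. Ifi209 was at 9.47, 8.08 and 8.07, high in sample 1 and 0.02 apart between the others. Ifi207 was at 9.21, 9.58 and 8.49, highest in sample 2 and lowest in sample 3. Without sample 2 the span of Ifi205 was 0.16, from 1.84, and without sample 1 that of Ifi209 was 0.02, from 1.40.

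The remaining detected Ifi200 genes were lowest in sample 3. Ifi204 was at 8.33, 8.29 and 7.64, Ifi202b at 6.85, 6.77 and 6.11, and the pseudogene Ifi203-ps at 7.45, 7.45 and 7.28, with identical values in samples 1 and 2. With Ifi207 and Ifi209, 5 of the 6 were lowest in sample 3, where 33.3% of all named genes were. Fibroblast markers were lowest there in 8 of 8 and pericyte and smooth muscle markers in 7 of 8, with median deviations in sample 3 of -0.54 and -0.55. Macrophage and monocyte markers were lowest there in 6 of 10, with a median of -0.29 and summed linear intensities of 13686, 14044 and 11584, and 2 of the 10 were highest there. The part of these cells in the Ifi200 values was not tested. Ifi208, Ifi213 and Ifi214 were below the detection level on every array, with 5.10 as the highest value. Their promoter stretches are printed to show how alike the copies are, with the core in capitals.
Ifi207, chr1:173741829-173741862, minus strand: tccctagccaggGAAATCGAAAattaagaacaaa
Ifi208, chr1:173673595-173673628, plus strand: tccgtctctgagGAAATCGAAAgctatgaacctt
Ifi213, chr1:173599324-173599357, minus strand: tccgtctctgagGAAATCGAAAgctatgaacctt
Ifi214, chr1:173536015-173536048, minus strand: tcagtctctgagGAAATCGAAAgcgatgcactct
The stretches of Ifi208 and Ifi213 are the same, and Ifi207, at 9.58 in sample 2, carries the same core with other bases around it. Probe sets of such copies may read more than 1 of them, which was not tested.

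The immunity-related GTPases, which act with the GBPs on vacuoles, spanned less. Iigp1 was at 6.84, 7.20 and 6.40, a mean of 6.81 ± 0.40 (SD, n = 3), and was highest in sample 2 like the type I effectors. Irgm1 was at 6.48, 6.14 and 6.18 and Irgm2 at 7.55, 7.59 and 7.23. These 3 genes had no common order.

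**Figure D4:**
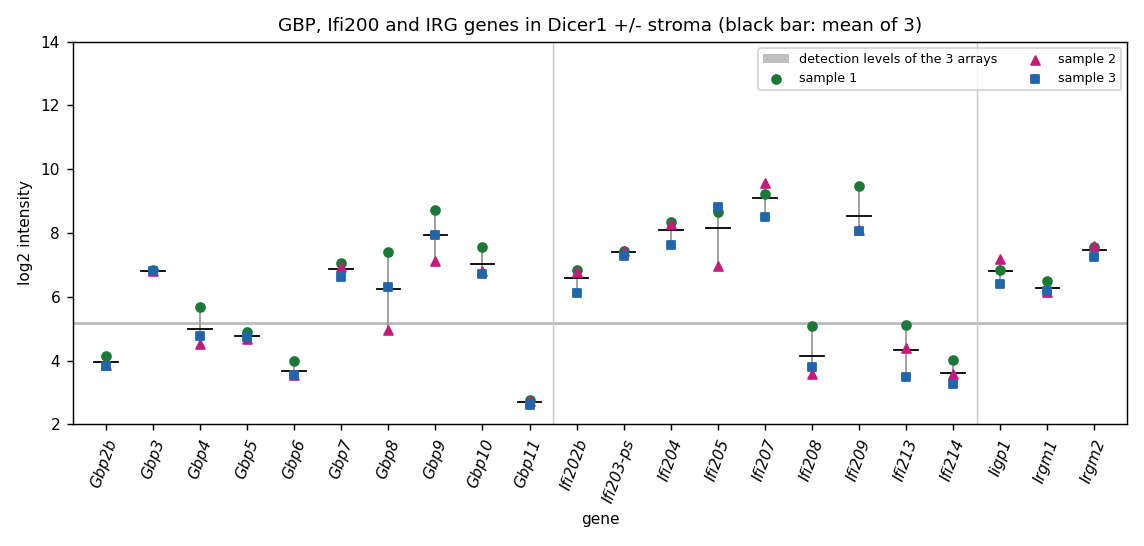
Log2 intensity (vertical axis) of each GBP, Ifi200 and IRG gene (horizontal axis) in samples 1 to 3 (circle, triangle, square), with the mean as a black bar and the detection levels as a grey band. The circle of sample 1 is on top for the 6 GBP genes detected on at least 1 array, with spans of 2.44 for Gbp8 and 1.60 for Gbp9 against 0.05 for Gbp3.

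IFITM proteins sit in membranes and block the entry of enveloped virus. All 6 measured genes were detected on every array, where 60.5% of all named genes were. Ifitm2 was at 10.70, 10.92 and 10.61 and Ifitm3 at 11.25, 11.50 and 11.38, both highest in sample 2 with spans of 0.31 and 0.25. The other 4 were highest in sample 3, where 32.8% of all named genes were. Ifitm1 was at 7.78, 8.14 and 8.49, a mean of 8.14 ± 0.36 (SD, n = 3), and Ifitm6 at 10.41, 10.77 and 11.18, a mean of 10.79 ± 0.38 (SD, n = 3). Both were lowest in sample 1. Neutrophil markers were highest in sample 3 in 10 of 11 and lowest in sample 1 in 8 of 11, with summed linear intensities of 23657, 27010 and 32442, and a median deviation of 0.32 in sample 3. Other lists were high in sample 3 too. Endothelial markers were highest there in 7 of 8 (median 0.48, in cells sorted as PECAM1-negative), conventional dendritic cell markers in 6 of 8 (0.38) and muscle markers in 5 of 8 (0.45). The part of these cells in the IFITM values was not tested. Ifitm5, known from bone-forming cells, was at 6.69, 6.41 and 7.35, and Ifitm10 at 5.43, 5.56 and 5.75.

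The remaining Ifi genes were grouped by name only, and Ifi27 and Ifi27l2b lie in a single genomic cluster. Ifi27, a mitochondrial protein, was at 9.42, 9.70 and 9.16. Ifi30, the lysosomal thiol reductase of antigen-presenting cells, was at 9.69, 9.35 and 10.08, lowest in sample 2. Conventional dendritic (8 of 8), T cell (7 of 7), muscle (7 of 8), endothelial (6 of 8) and B and plasma cell markers (5 of 7) were too. The part of these cells in the Ifi30 values was not tested. Ifi35 was at 8.47, 8.36 and 8.42, and its second probe set at 7.53, 7.34 and 7.51, with spans of 0.11 and 0.18. Ifi27l2b and Ifi44l lay below the detection level on every array, with 3.46 as the highest value. The 4 genes of other proteins taken in by the pattern had spans of 0.11 to 0.29, with Irf2bp2 at 10.00, 10.11 and 10.21 and Isg20l2 at 7.49, 7.21 and 7.21, equal in samples 2 and 3.

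Set side by side, the families had separate profiles over the 3 samples. Over genes detected on all 3 arrays, the median deviation in samples 1 to 3 was -0.12, 0.28 and -0.11 for IFIT, -0.27, 0.37 and -0.10 for OAS, 0.36, -0.12 and -0.14 for GBP, 0.26, 0.12 and -0.46 for Ifi200 and -0.14, -0.01 and 0.26 for IFITM genes. Over all named genes detected on all 3 arrays these medians were -0.01, 0.00 and 0.00, which array normalization alone can bring about. The STAT and IRF genes moved less, at 0.04, -0.08 and 0.06. Markers of plasmacytoid dendritic cells, which make type I interferon, had no common high sample. Of the 4 detected on all arrays 2 were highest in sample 1, with Siglech, a surface lectin of these cells, at 7.45, 6.89 and 7.01, while Tcf4, their lineage factor, was highest in sample 2 at 9.31, 9.58 and 9.28.

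**Figure D5:**
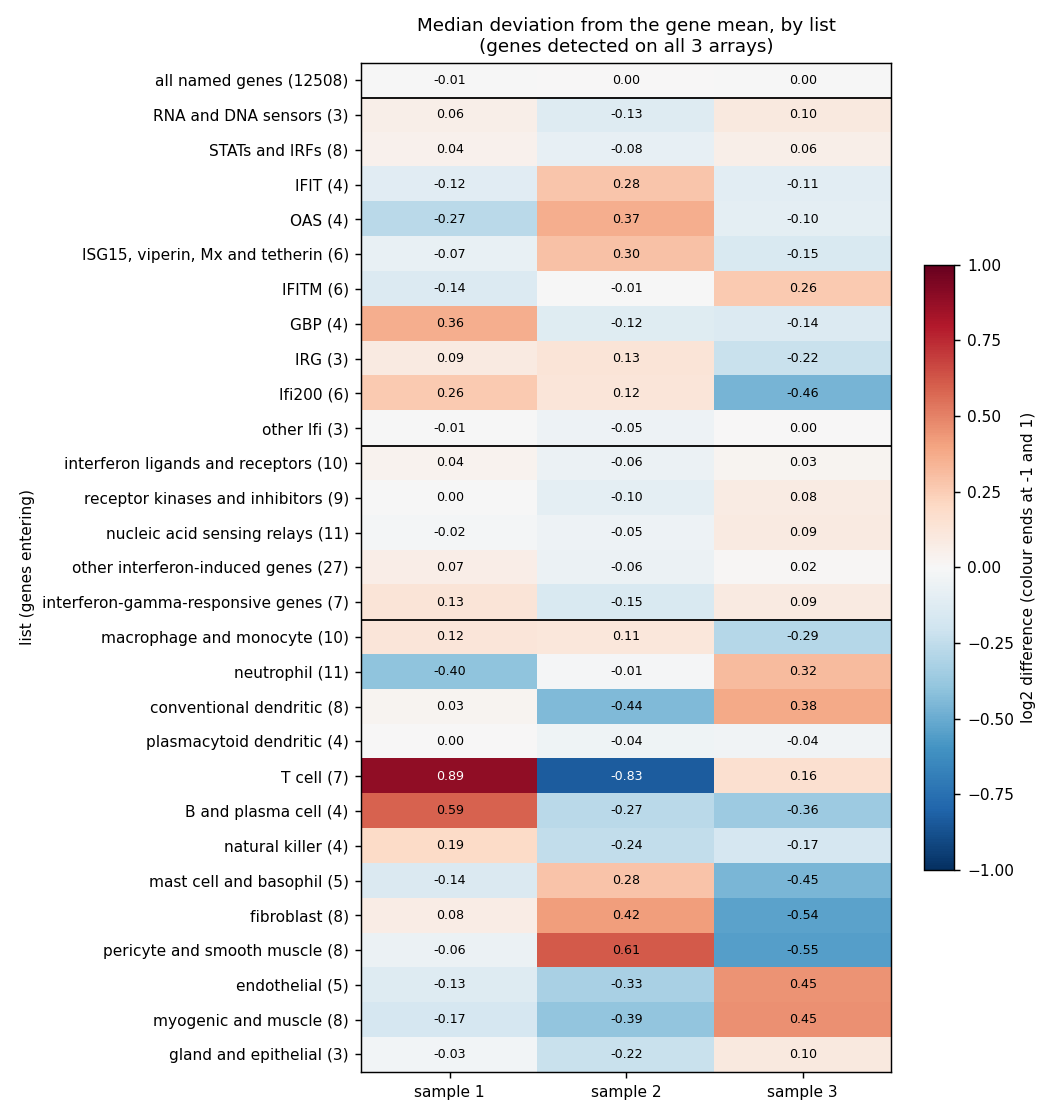
Median over genes of the difference between a sample's log2 value and the gene's mean over 3 samples (colour and printed value), for all named genes, the families, other pathway lists and cell type markers (vertical axis, number of genes detected on all 3 arrays in brackets) in each sample (horizontal axis). IFIT and OAS genes are high in sample 2 at 0.28 and 0.37, GBP genes in sample 1 at 0.36, and the T cell and the B and plasma cell lists reach 0.89 and 0.59 in sample 1.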

How the data were processed

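Total RNA from 3 sorted samples was labelled with biotin and read on Affymetrix arrays, 1 array per sample. Probe sets carry log2 intensities as deposited by the authors, whose tools included Partek, per the submitters' processing notes. How background was corrected, arrays were normalized and probes were summarized is not stated in the labels used here. A log2 scale was inferred from values between 2.00 and 13.18. Of 31873 probe sets 23094 had 1 symbol, 1764 several and 7015 none here, and each gene took its brightest single-symbol probe set. All 72 genes matched RefSeq identifiers (GRCm38.p6) under the same symbol.

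Detection, spans, the order of samples and medians were computed with Python 3.11.15 and pandas 2.3.3 and tested on simulated data. No test across genes was made, as there is 1 group. The genes and lists were chosen with earlier results of these data known. Every gene of the set could be named; values in each sample are given for sensors, STATs and IRFs, genes spanning more than 1, and at least the first 3 of each family. Stretches of promoters other than those with the widest spans were chosen after the values were seen. Alternatives changed the detection level, normalization, probe set, span, filter and samples. Protein identities, planned to mark similar copies, were not computed, as no protein sequences were used here. With arrays, their number limits the precision. Of the 56 detected genes 4 had 2 equal values, which lowers their SD.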

Additional observations from a re-analysis of the deposited data

How the results depend on the processing

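Of 108 recomputed values of the main counts and medians, 97 kept within 1.5 times the main count or within the spread of the sample medians. The number of genes spanning more than 2-fold was 8, and it was 26 at 1.5-fold, 5 at 3-fold, 5 among genes detected on all 3 arrays, and 4 to 5 when a sample was left out. Without a filter on dim probe sets 31 genes were highest in sample 1, from 18. With a sample left out, 27 to 30 genes were highest in sample 1 and 25 in sample 3, from 18 and 16, since only 2 samples were then ordered. The median deviation in sample 3 was -0.04, and -0.015 to -0.0079 when a sample was left out. Genes detected numbered 51, with 39 at the 99th and 58 at the 90th percentile of the reference. Of 17 detected effectors, 13 were highest in sample 2 (32.5% of all named genes were). Of 12 detected GBP and Ifi200 genes, 9 were highest in sample 1 (28.8%). These were 6 of 6 GBP genes, with Gbp4 detected in sample 1 only, and 3 of 6 Ifi200 genes. Under alternatives chosen after seeing the data, the 13 and the 9 became 11 and 8 at the 99th percentile. They stayed at 13 and 9 after median centring or quantile normalization. Centring and quantile normalization moved no gene's span by more than its SD. No paired analysis was possible because the samples form a single group. The alternative without closely similar copies was not run, as no protein sequences were used here. A value near the detection level is limited by signal over background, and spans that reach below it may be larger than measured.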
